A study of Mus musculus with 12 samples.

Results

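Zfp423, Zfp521 and Zfp467 are transcription factors with many zinc fingers, the small zinc-holding folds with which such proteins grip DNA. Zfp423 is known to set fibroblasts on the path to fat cells. It raises the expression of the fat cell receptor Pparg, works with the SMAD proteins that carry bone morphogenetic protein (BMP) signals, and binds early B-cell factors (EBF). Zfp521 is the close relative of Zfp423. It is known to hold back fat cell formation in mouse progenitors, to bind Ebf1 and to repress Zfp423. Zfp467 is known to turn bone marrow stromal cells of mice toward fat and away from bone, and parathyroid hormone lowers its expression.

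All probe sets whose platform annotation names 1 of these 3 genes were taken: 1 for Zfp423 (1419380_at), 1 for Zfp521 (1451332_at) and 2 for Zfp467 (1449510_at and 1419564_at). These are 4 of the 22626 probe sets, a probe set being a group of array spots that read the same transcript. For Zfp467 the brighter probe set, 1449510_at, is given first.

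The series holds 12 Affymetrix arrays of cultured fibroblasts, 3 in each of 4 groups: GFP+ and GFP- cells of inguinal fat, and GFP+ and GFP- cells of epididymal fat. The cells were grown from the stromal vascular fraction (fat tissue without its fat cells) of male mice aged 6 to 8 weeks that all carried a Zfp423-GFP transgene on a mixed FVB and C57BL/6 background. Inguinal fat lies under the skin and epididymal fat inside the abdomen. Cells were sorted by green fluorescent protein (GFP), returned to culture and, per the labels, harvested while still proliferating, and the series asks which genes mark the preadipocytes of each depot. The labels do not describe how the transgene was built, how many animals were pooled, or whether replicates came from separate cultures. The p-values thus cover the spread among these arrays alone, and that spread may be technical.

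Array medians lay between 347.3 and 371.2, and arrays of 1 group correlated at r between 0.992 and 0.994 on the log2 scale over all probe sets, which are not independent replicates. The fibroblast markers were bright as a sum in every group: the summed intensity of 9 measured fibroblast markers, collagens among them, lay between 109817 and 124833 on the 12 arrays. Not each was bright, with Cd34 at a mean of 19.9 in inguinal GFP+ cells. Mural cell markers, genes of smooth muscle and pericytes that cultured fibroblasts can also carry, were bright as a sum too (8 of 8 measured, 54391 to 73640). Acta2 gave the largest part (group means of 31391 to 37676), while Rgs5 was weak in every group (17.5 to 67.5). Summed markers of other cell types differed between the sorted fractions. The summed intensity of 14 macrophage and leukocyte markers was 2090 to 2311 in GFP+ and 11413 to 13479 in GFP- inguinal cells, against 2756 to 2935 in epididymal GFP+ and 3273 to 3695 in epididymal GFP- cells. By limma, the test described below, 1 of the 14 was called higher in epididymal GFP+ cells, 8 lower and 5 neither. Csf1r went against the sum there, with means of 1065 in epididymal GFP+ and 504.3 in epididymal GFP- cells. The summed intensity of 9 measured mesothelial markers, genes of the layer that covers abdominal organs, was 7302 to 7581 in epididymal GFP+ and 37962 to 40054 in epididymal GFP- cells, against 1942 to 2276 in GFP+ and 1593 to 1763 in GFP- inguinal cells. Most of the inguinal sum came from Krt19 (means of 1292 in GFP+ and 1186 in GFP- cells) and Krt7 (563.9 and 148.4). Msln, Upk3b, Wt1, Krt8 and Krt18 averaged 61.8 or less in inguinal cells. Krt19 went the other way, at 190.7 in epididymal GFP+ and 216.4 in epididymal GFP- cells. The sum of 8 endothelial markers was 982.2 to 1076 in epididymal GFP+ and 5364 to 5586 in epididymal GFP- cells, most of it from Kdr (means of 552.0 and 4469), while the defining markers Pecam1 and Vwf averaged under 22.5 in every group. By limma 2 of the 8 were called higher in epididymal GFP+ cells and 2 lower. Esam (means of 123.8 in GFP+ and 825.3 in GFP- cells) went with the sum. Cdh5 (166.0 and 33.4) and Emcn (73.6 and 28.3) went against it. No probe set read 0. Olfactory receptor genes, silent in fibroblasts, had a median intensity between 19.9 and 22.3 in the 4 groups and a 90th percentile between 44.6 and 66.7. In such bulk RNA, fewer cells of a type and less RNA per cell cannot be told apart.

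The sequences just upstream of the RefSeq start sites of Zfp423 and Zfp467 are shown because these genes took opposite directions in epididymal cells, where EBF genes also moved (below). They are 250 bases long, on the minus strand of GRCm38.p6, at chr8:87959596-87959845 and chr8:87804440-87804689 for a pair of Zfp423 start sites and at chr6:48445091-48445340 for Zfp467. Capitals mark matches, on either strand, to a C/EBP site (TTGCNNAA) or to the core of the EBF site (CCCNNGGG). No window held matches that overlap.
Zfp423, start site 1: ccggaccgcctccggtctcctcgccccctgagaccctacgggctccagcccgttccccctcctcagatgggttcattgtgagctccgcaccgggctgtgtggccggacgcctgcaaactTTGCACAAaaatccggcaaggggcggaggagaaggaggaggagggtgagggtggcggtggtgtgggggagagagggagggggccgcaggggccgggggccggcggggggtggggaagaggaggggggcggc
Zfp423, start site 2: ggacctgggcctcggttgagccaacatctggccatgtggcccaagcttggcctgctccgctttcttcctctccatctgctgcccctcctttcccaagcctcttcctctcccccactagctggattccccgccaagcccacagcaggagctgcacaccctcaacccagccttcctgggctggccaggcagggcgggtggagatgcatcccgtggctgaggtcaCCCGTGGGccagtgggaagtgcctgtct
Zfp467, start site 1: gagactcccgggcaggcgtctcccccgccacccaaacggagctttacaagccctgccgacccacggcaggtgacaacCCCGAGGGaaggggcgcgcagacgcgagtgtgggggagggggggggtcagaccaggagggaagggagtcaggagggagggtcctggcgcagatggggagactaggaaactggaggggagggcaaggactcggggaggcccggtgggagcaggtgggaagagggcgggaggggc

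Start site 1 of Zfp423 held 1 C/EBP match, beginning 131 bases before the start, a match that 9.56% of the 32851 mouse windows of this length also hold. Start site 2 of Zfp423 and the Zfp467 window each held 1 EBF core, beginning 28 and 173 bases before the start, and 11.8% of all windows hold one. The longer EBF site, this core with T before it and A after it, found in 0.779% of windows, and the half-site GCACCC known for the rat form of Zfp423, found in 13.3%, were in none of the 3 windows. The windows were rich in G and C (71.6%, 64.8% and 70.4%, against a median of 52.4% over all windows). The arrays do not measure which start site was used or what was bound there.

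Zfp423 followed the GFP sort in both depots and spread widest between the epididymal fractions. Its intensity was 150.8, 112.4 and 110.0 on the inguinal GFP+ arrays, against 47.4, 73.2 and 51.7 on the inguinal GFP- arrays. It was 238.6, 278.3 and 208.3 on the epididymal GFP+ arrays, against 29.1, 25.8 and 33.4 on the epididymal GFP- arrays. The 4 groups did not overlap, with epididymal GFP+ cells at the top, inguinal GFP+ cells next, then inguinal GFP- cells, and epididymal GFP- cells at the bottom. Every step of this order passed the test used here, limma with Benjamini-Hochberg adjustment over all 22626 probe sets at an adjusted p of 0.05.

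Among GFP+ cells Zfp423 was lower in inguinal than in epididymal cultures, with a difference of -0.88 (SE 0.18, adjusted p = 0.000763) in log2(intensity + 16), the scale of all differences below. Among GFP- cells it was higher in inguinal cultures, by 0.68 (SE 0.18, adjusted p = 0.00468). The depot order was thus turned round between the fractions. The GFP- part of this rests on means of 57.4 (inguinal) and 29.4 (epididymal), both under 77.7, the limit used here for weak detection. Over the processing alternatives this GFP- difference stayed called but ran from 0.37 to 0.92. The depots differed in the GFP contrast by -1.56 (SE 0.25, adjusted p = 0.000164), with values from -1.88 to -1.07 over the processing alternatives. Since the cells were sorted on a reporter named for this gene, its rise in GFP+ cells (0.94 with a 95% interval of 0.56 to 1.32 in inguinal and 2.50 with 2.12 to 2.88 in epididymal cells) checks the sort rather than adding to it. Whether transcripts of the transgene reach this probe set was not tested. The epididymal GFP- mean of 29.4 ± 3.80 (SD, n = 3) lay near the intensity of silent genes, so no fold is given against it. The pseudocount sets much of the size of the epididymal difference, which was 1.70 with a pseudocount of 64 and 2.99 with a pseudocount of 1.

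**Figure D1:**
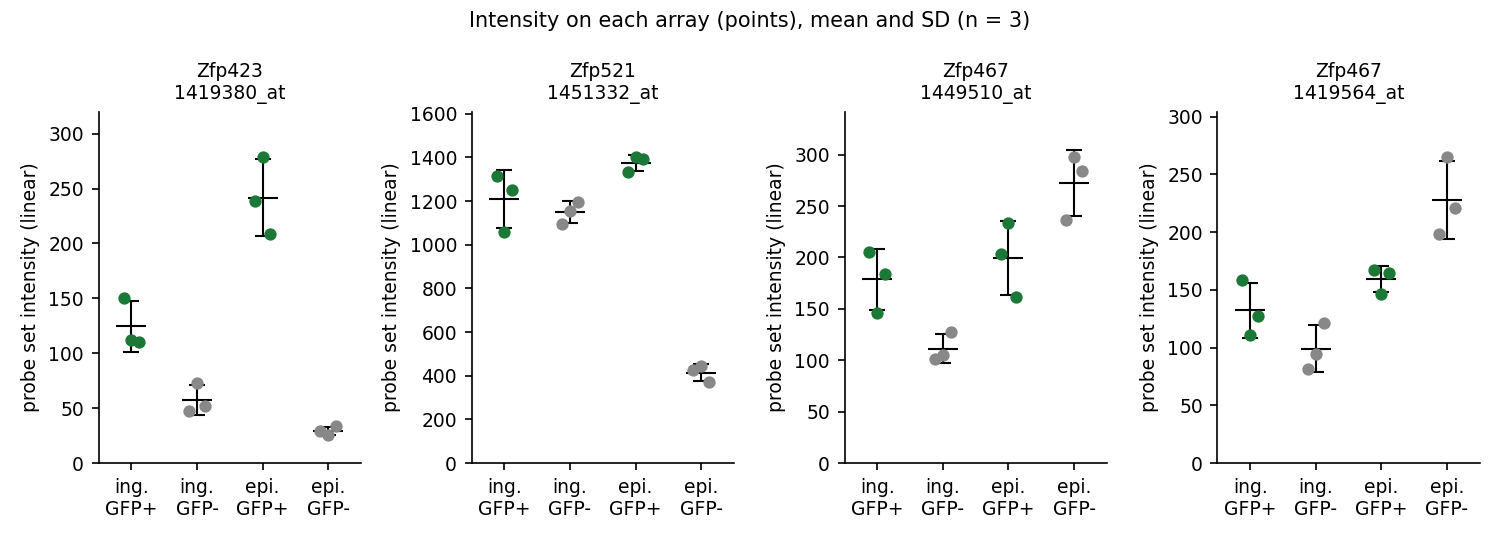
Intensity of the 4 probe sets (linear axis from 0) on each array, by group. Green points are GFP+ and grey points GFP- arrays, with ing. for inguinal and epi. for epididymal, and bars give the mean and SD of 3 arrays. Zfp423 is highest in epididymal GFP+ cells (208.3 to 278.3), Zfp521 is low in epididymal GFP- cells alone (371.7 to 444.3), and both Zfp467 probe sets are highest in epididymal GFP- cells.

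Zfp521, the relative that opposes fat cell formation, did not separate GFP+ from GFP- cells in inguinal cultures and was low in a single group, epididymal GFP- cells. Its intensity was 1313, 1059 and 1253 in inguinal GFP+ cells, against 1096, 1156 and 1196 in inguinal GFP- cells. It was 1332, 1400 and 1392 in epididymal GFP+ cells, against 426.1, 444.3 and 371.7 in epididymal GFP- cells. The inguinal fractions overlapped, while no epididymal GFP- array came within reach of any other.

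In epididymal cells Zfp521 rose in the GFP+ fraction by 1.70 (SE 0.08, adjusted p = 6.61e-11), a ratio of means of 3.32. In inguinal cells the difference was 0.07 with a 95% interval of -0.10 to 0.23 (adjusted p = 0.71), so the interval holds 0 and ends far below the epididymal value. The test of the depot difference gave -1.63 (SE 0.11, adjusted p = 1.27e-08). Among GFP- cells Zfp521 was higher in inguinal than in epididymal cultures by 1.44 (SE 0.08, adjusted p = 2.95e-10). Among GFP+ cells the depot difference was -0.19 (SE 0.08, adjusted p = 0.0603), with inguinal arrays at 1059 to 1313 and epididymal arrays at 1332 to 1400. That comparison passed without inguinal GFP+ replicate 1 (-0.25, adjusted p = 0.0256) or epididymal GFP- replicate 3 (adjusted p = 0.0394), or with weakly detected probe sets left out (adjusted p = 0.0422).

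Zfp467, which favours fat over bone in marrow stroma, took opposite directions in the depots. Its probe set 1449510_at read 205.5, 146.4 and 184.1 in inguinal GFP+ cells, against 101.6, 104.8 and 127.9 in inguinal GFP- cells. In epididymal GFP+ cells it read 203.7, 233.7 and 161.4, against 236.2, 297.4 and 284.6 in epididymal GFP- cells. Neither pair of fractions overlapped, although in the epididymal pair the gap was narrow, 233.7 against 236.2.

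In inguinal cells Zfp467 (1449510_at) rose in the GFP+ fraction by 0.61 (SE 0.16, adjusted p = 0.02), and in epididymal cells it fell by 0.43 (SE 0.16, adjusted p = 0.0404). The difference between the depots was 1.03 (SE 0.22, adjusted p = 0.00178). Among GFP- cells it was lower in inguinal than in epididymal cultures, by -1.18 (SE 0.16, adjusted p = 9.87e-06), and among GFP+ cells the depot difference was -0.15 with an interval of -0.48 to 0.19 (adjusted p = 0.489). Epididymal GFP- cells stood highest and inguinal GFP- cells lowest, and the GFP+ groups between them overlapped. Each separate GFP contrast rested on few arrays. The inguinal difference no longer passed when GFP+ replicate 1 or 3 was left out (adjusted p of 0.102 and 0.0644), nor when GFP- replicate 1 or 2 was (0.0848 and 0.0749). The epididymal difference no longer passed when GFP+ replicate 1 or 3 was left out (0.0691 and 0.186), nor when GFP- replicate 2 or 3 was (0.136 and 0.112). The depot difference in the GFP contrast passed with any 1 array left out, with values from 0.90 to 1.16.

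The other Zfp467 probe set, 1419564_at, ran in parallel at a lower reading. It gave 158.4, 111.4 and 127.1 in inguinal GFP+ cells, against 81.2, 94.5 and 121.1 in inguinal GFP- cells, and these overlapped. It gave 167.2, 146.6 and 164.5 in epididymal GFP+ cells, against 198.6, 264.7 and 220.9 in epididymal GFP- cells, which did not. Its inguinal difference of 0.37 missed the threshold (SE 0.16, adjusted p = 0.188), while the epididymal difference of -0.47 (SE 0.16, adjusted p = 0.0299) and the depot difference of 0.84 (SE 0.23, adjusted p = 0.00977) passed. The epididymal call of this probe set was lost without epididymal GFP+ replicate 2 (adjusted p = 0.0994) or 3 (0.0547) or epididymal GFP- replicate 2 (0.136) or 3 (0.0582).

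The ratio of 1449510_at to 1419564_at on the same array lay between 0.981 and 1.59, both extremes in epididymal GFP+ cells. The GFP contrast of the 2 probe sets differed by 0.24 in inguinal and 0.04 in epididymal cells. An exact two-sided permutation test over 400 arrangements, with GFP labels permuted within depot, gave p = 0.21 for the sum of these differences, where 0.005 is the smallest p it can give. Without epididymal GFP+ replicate 3 the same exact permutation test gave a sum of 0.43, against 0.28 with all arrays, and p = 0.025. Zfp423 and Zfp521 had 1 probe set each, so no such comparison could be made for them.

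**Figure D2:**
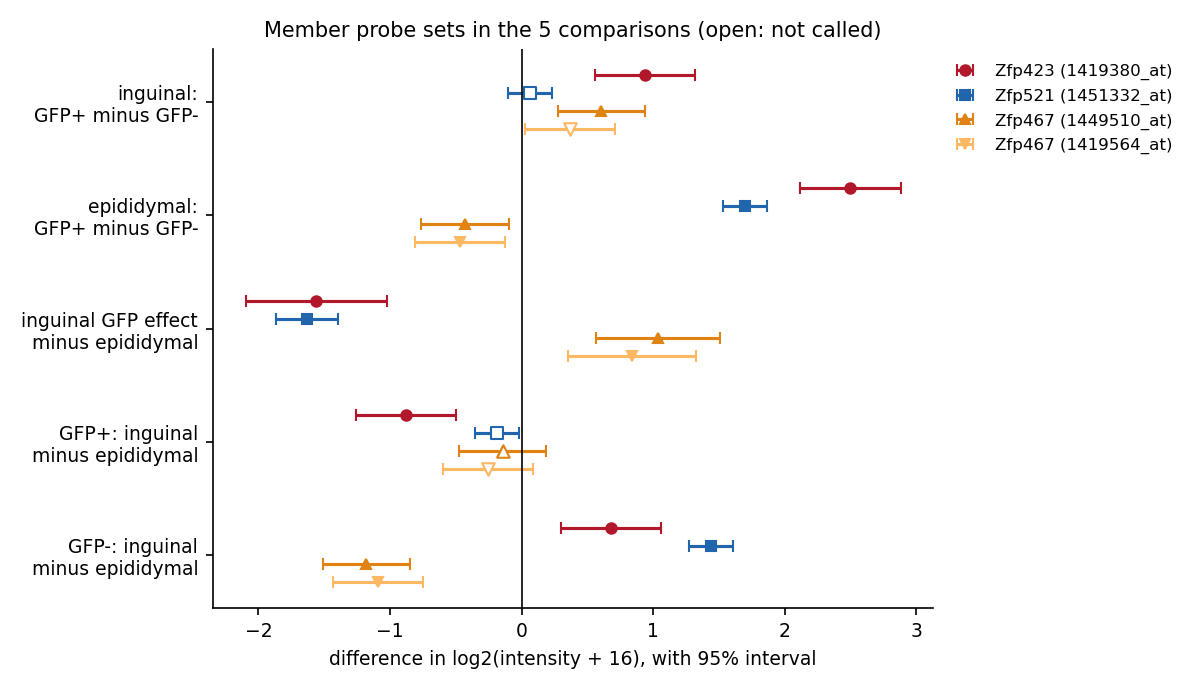
Differences in log2(intensity + 16) with their 95% intervals for the 4 probe sets in 5 comparisons. Filled markers passed an adjusted p of 0.05 and open markers did not. In epididymal cells Zfp423 (2.50) and Zfp521 (1.70) lie right of 0 and both Zfp467 probe sets left of it, while in inguinal cells Zfp521 lies at 0.07.

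Set beside all probe sets, the calls of the members are in part common ones. Over the 22626 probe sets, 10.5% were called in the inguinal GFP contrast, 38.1% in the epididymal GFP contrast, 30.5% in the depot difference of the GFP contrast, 47.1% between depots in GFP+ cells and 49.7% between depots in GFP- cells. A call in the last comparisons is thus near what any probe set would show. The sizes varied. In epididymal cells 1.06% of probe sets changed at least as much as Zfp423 in either direction and 2.40% at least as much as Zfp521, against 22.6% for Zfp467 (1449510_at). In inguinal cells these shares were 1.30% for Zfp423, 65.2% for Zfp521 and 4.06% for Zfp467. Both Zfp423 shares check the sort on its reporter rather than adding to it.

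The 5 comparisons share arrays. The sum of macrophage markers was highest in inguinal GFP- cells, where Zfp423 and Zfp467 were lower than in inguinal GFP+ cells. The sum of mesothelial markers was highest in epididymal GFP- cells, where Zfp423 and Zfp521 were lower and Zfp467 higher than in epididymal GFP+ cells. The part of these other cells in the members' differences was not tested.

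Other genes named Zfp, a label for zinc-finger proteins of several unlike families, gave a scale for the members. Of 170 such genes, each read by its brightest probe set, 4 rose and 5 fell in inguinal GFP+ cells, and 161 were not called, with a median difference of -0.02. Over all 12393 genes 5.05% rose and 7.00% fell, with a median of -0.01. In epididymal GFP+ cells 13 of the 170 rose and 40 fell, with a median of -0.09. Over all genes 21.2% rose and 20.1% fell, with a median of 0.01. The inguinal balance moved with the scaling: median centring gave 7 higher and 2 lower, and quantile normalization 4 higher and 2 lower. Over all probe sets it was 960 higher and 1410 lower, against 1598 and 1044 after median centring.

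None of the 170 had a larger positive GFP difference than Zfp423 in either depot or than Zfp521 in epididymal cells. For Zfp423 this rank checks the sort, since the cells were sorted on a reporter named for it. For Zfp467, 3 of the 170 lay above it in inguinal and 16 below it in epididymal cells. Zfp612 resembled Zfp467 in direction: it rose in inguinal GFP+ cells (0.75, adjusted p = 0.00276) and fell in epididymal GFP+ cells (-1.87). Its mean intensity was 69.5 in GFP+ and 34.7 in GFP- inguinal cells, and 111.0 in epididymal GFP+ and 449.0 in epididymal GFP- cells, and the inguinal GFP- mean lies within the range of silent genes. Zfp36l1, which binds AU-rich messenger RNA rather than DNA, did so too (0.50 and -0.91). Its relative Zfp36l2 fell by 1.30 in epididymal GFP+ cells, and Zfp703 by 1.06. The 3 largest called epididymal increases among the 170, weakly detected genes left aside, were smaller than those of Zfp423 and Zfp521: Zfp53 (0.68), Zfp54 (0.45) and Zfp503 (0.41). In inguinal cells Zfp131 (-0.23) and Zfp53 (-0.26) fell, although Zfp53 lost its call without GFP+ replicate 3 (adjusted p = 0.0535) or GFP- replicate 2 (0.0608). Zfp704 (-0.31, adjusted p = 0.0454) was barely called: the replicate block (0.0732), quantile normalization (0.0874), median centring (0.0759), fitting the inguinal arrays alone (0.0932) and leaving out any of 10 of the 12 arrays (up to 0.138) each ended the call. Zfp207 was called higher (0.11, adjusted p = 0.0174), but the mean of its probe sets gave -0.20 (adjusted p = 0.167), and leaving out GFP+ replicate 1 (0.086) or 3 (0.0597) or GFP- replicate 1 (0.0632) or 3 (0.0637) ended the call.

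**Figure D3:**
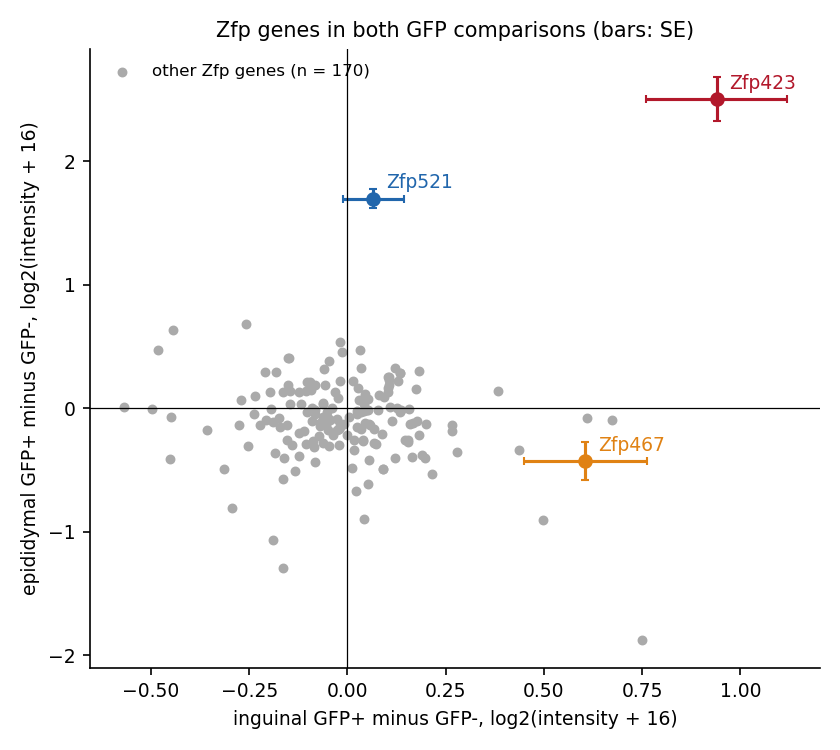
GFP+ minus GFP- in inguinal cells (x axis) against epididymal cells (y axis), both in log2(intensity + 16), for the 3 members (coloured, with SE) and 170 other Zfp genes (grey). Zfp423 lies at 0.94 and 2.50 and Zfp521 at 0.07 and 1.70, above every grey point, and Zfp467 lies at 0.61 and -0.43. The cells were sorted on a reporter named for Zfp423, so its position checks the sort.

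Of the EBF factors, which Zfp423 and Zfp521 both bind, Ebf1 and Ebf2 split between the depots and Ebf3 did not pass that test. All 3 measured were called higher in epididymal GFP+ cells, where 21.2% of all genes rose. Ebf3 also rose in inguinal GFP+ cells (0.78, adjusted p = 0.00288). Its epididymal means lay within the range of silent genes, at 43.0 for GFP+ and 20.7 for GFP- arrays. Inguinal means of Ebf3 were 586.5 for GFP+ and 333.1 for GFP- arrays. The epididymal call and the depot test of Ebf3 thus rest on weak epididymal readings. Mean Ebf1 intensity was 3577 in GFP+ and 3477 in GFP- inguinal cells, and 2919 in epididymal GFP+ and 125.1 in epididymal GFP- cells. Ebf2 read 1174 in epididymal GFP+ and 18.4 in epididymal GFP- cells, where it lay at the level of silent genes, and in inguinal cells its difference of -0.13 missed the threshold (adjusted p = 0.521). The tests of the depot difference gave -4.34 for Ebf1 and -5.25 for Ebf2, both called, and 0.11 for Ebf3 (adjusted p = 0.774). The size for Ebf2 is set by the pseudocount: its epididymal difference was 3.91 with a pseudocount of 64 and 5.96 with a pseudocount of 1.

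BMP and SMAD genes were mostly lower in epididymal GFP+ cells. Of 16 measured, 2 rose and 9 fell, with a median of -0.21, against 21.2% of all genes higher and 20.1% lower. The sum of mesothelial markers was lower in the same GFP+ cells (7302 to 7581, against 37962 to 40054 in epididymal GFP- cells), and its part in these differences was not tested. Smad1, a BMP-responsive SMAD, rose by 0.76 and Smad4, the partner that all such SMADs share, by 0.18. Bmp4, a BMP ligand, fell by 3.05, to a mean of 953.1 in epididymal GFP+ cells, against 8008 in epididymal GFP- cells. The BMP target genes Id1 and Id2, inhibitors of differentiation, fell by 1.81 and 1.41, and Id3 by 0.28. In inguinal GFP+ cells 0 of the 16 rose and 3 fell by limma (Acvr1 by 0.11, Smad7 by 0.25 and Id2 by 0.20), with a median of -0.05. Over all genes 5.05% rose and 7.00% fell there. Those inguinal calls did not hold widely: after median centring none of the 16 was called lower.

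Of 8 measured fat cell genes 3 rose and 1 fell in inguinal GFP+ cells (median 0.12), and 5 rose in epididymal GFP+ cells (median 0.66) with none lower. Over all genes 12.1% were called in inguinal cells, and 21.2% rose in epididymal cells. Cebpa and Cebpd, C/EBP factors of fat cell differentiation, rose in epididymal GFP+ cells alone (1.09 and 0.90, against inguinal differences of -0.11 with adjusted p = 0.682 and -0.13 with adjusted p = 0.0577). Their depot differences were -1.19 and -1.03, both called. Lipoprotein lipase, Lpl, rose more in inguinal (1.31) than in epididymal GFP+ cells (0.41), with a depot difference of 0.90 (adjusted p = 0.000464). Pparg and Fabp4 rose in both depots. For Pparg the epididymal means were 214.2 in GFP+ and 35.6 in GFP- cells, and the latter lies within the range of silent genes. Cd36, a fatty acid transporter that was weakly detected, fell in inguinal GFP+ cells (-0.97, adjusted p = 0.0226) and lost this call when only the inguinal arrays were fitted (0.0541) or without GFP+ replicate 1 (0.0668), GFP+ replicate 2 (0.0678) or GFP- replicate 2 (0.117). Adiponectin, Adipoq, a gene of mature fat cells, read between 17.1 and 30.4 in the group means, which is the level of silent genes.

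**Figure D4:**
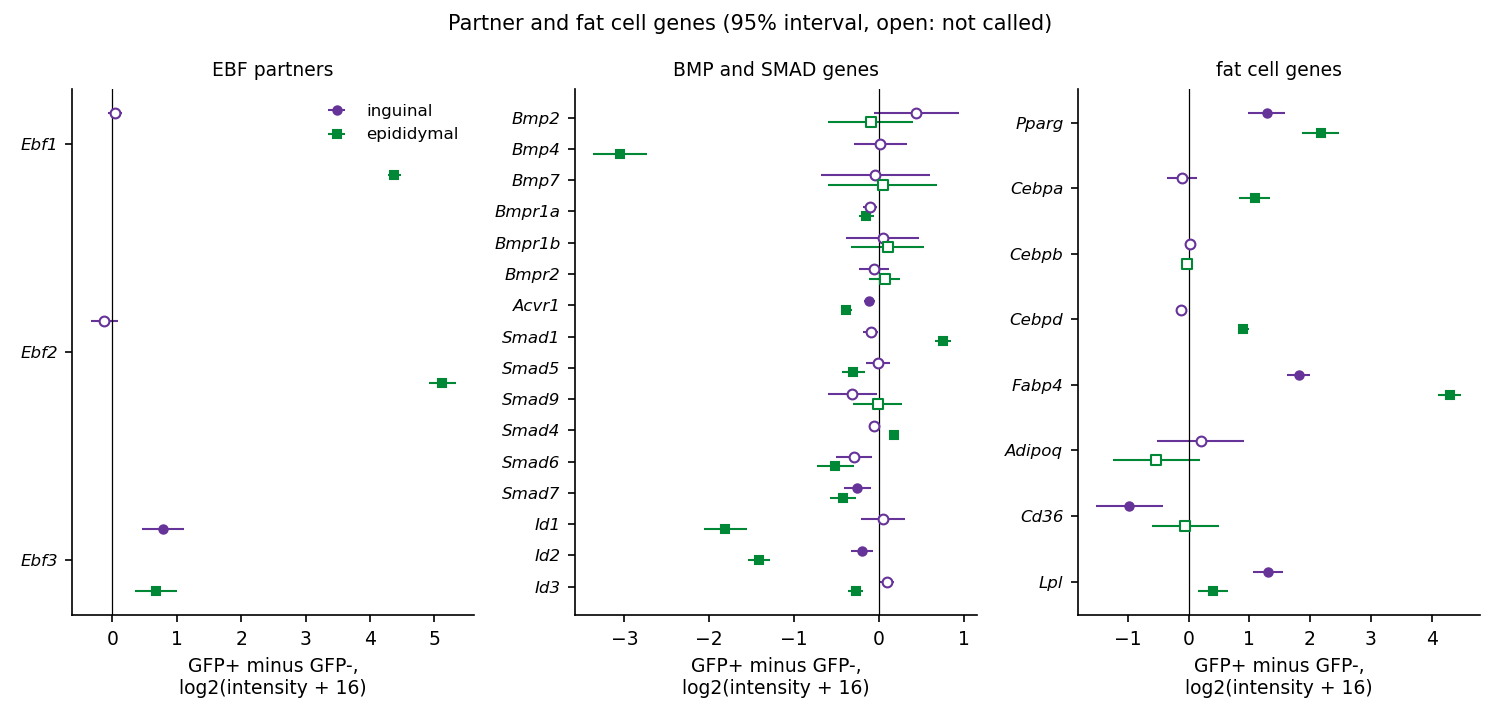
GFP+ minus GFP- differences in log2(intensity + 16) with 95% intervals in inguinal (purple circles) and epididymal cells (green squares) for 3 EBF, 16 BMP and SMAD and 8 fat cell genes. Filled markers passed an adjusted p of 0.05. Ebf1 and Ebf2 lie near 0 in inguinal cells and at 4.38 and 5.12 in epididymal cells, and Bmp4, Id1 and Id2 lie left of 0 in epididymal cells.

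Among other known partners of Zfp423, 3 of 11 rose and 2 fell in epididymal GFP+ cells (median -0.10), and 0 rose and 2 fell by limma in inguinal GFP+ cells (median -0.20). The epididymal share of 45.5% called is near the 41.4% of all genes, and the inguinal share was 18.2% against 12.1%. Ccn5, a secreted protein known to hold Zfp423 outside the nucleus, rose in epididymal GFP+ cells (2.58) and fell in inguinal GFP+ cells (-0.52). Its mean was 7252 in GFP+ and 10430 in GFP- inguinal cells, and 2127 in epididymal GFP+ and 342.0 in epididymal GFP- cells. Rarb, a retinoic acid receptor, rose in epididymal GFP+ cells by 3.47, and in inguinal cells its difference was 0.21 (adjusted p = 0.225). Its mean was 971.7 in epididymal GFP+ and 73.6 in epididymal GFP- cells, the latter under the limit of 77.7 for weak detection. Parp1, a DNA damage enzyme that binds the human form of Zfp423, fell by 0.42 in epididymal GFP+ cells. Notch1, a receptor, fell in both depots (-0.40 and -0.35). The epididymal call of Notch1 was lost in limma with the mean of its probe sets (-0.28, adjusted p = 0.0552).

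Subunits of the NuRD complex, a corepressor that Zfp423 and Zfp521 are known to recruit, moved little. Of 12 measured, 4 rose and 2 fell in epididymal GFP+ cells (median 0.10), which is 50.0% called against 41.4% of all genes. In inguinal GFP+ cells 0 rose and 1 fell, Mta1 by 0.12 (adjusted p = 0.0257; 12.1% of all genes called), and that call was lost after median centring (adjusted p = 0.122) and without GFP+ replicate 1 (0.0811), GFP- replicate 2 (0.0786) or GFP- replicate 3 (0.108). Gatad2b stood apart with 0.98, while Mbd2 (0.20), Hdac2 (0.16) and Rbbp4 (-0.31) changed by less. Of 5 measured bone genes tied to Zfp521 and Zfp467, 2 rose and 2 fell in epididymal GFP+ cells, where 41.4% of all genes were called, and 2 of the 5 were weakly detected. Pth1r, the parathyroid hormone receptor, rose by 2.37, with means of 279.5 in epididymal GFP+ and 44.2 in epididymal GFP- cells, opposite in direction to Zfp467. The GFP- mean lies within the range of silent genes, and the difference was 1.69 with a pseudocount of 64 and 2.79 with a pseudocount of 1. Hdac3, a corepressor, fell by 0.23. Sp7, a bone factor, was called higher by 0.54 (adjusted p = 0.0258), a call lost without epididymal GFP+ replicate 1 (0.128) or 3 (0.0544) or GFP- replicate 1 (0.0739) or 3 (0.0533). Tnfsf11, the osteoclast ligand, fell by 1.05 and was weakly detected. In inguinal GFP+ cells none of the 5 was called by limma, with Pth1r at 0.14 (adjusted p = 0.794) and Tnfsf11 at 0.28 (adjusted p = 0.624).

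Of 11 measured zinc-finger regulators of fat cells outside the members, 1 rose and 1 fell in inguinal and 3 rose and 2 fell in epididymal GFP+ cells, with medians of 0.00 in both. The epididymal share of 45.5% called is near the 41.4% of all genes, and the inguinal share was 18.2% against 12.1%. Snai2, a repressor active in mesenchymal cells, rose in both (0.24 and 2.09, adjusted p = 0.00499 in inguinal cells). Gli1, a Hedgehog effector that was weakly detected, was called lower in inguinal GFP+ cells by 0.54 (adjusted p = 0.0277). That call was lost when only the inguinal arrays were fitted (0.080) and without GFP+ replicate 2 (0.0814) or 3 (0.0747) or GFP- replicate 1 (0.104) or 3 (0.096). In epididymal GFP+ cells Zbtb20 (0.25) rose and the RNA-binding Zfp36 fell (-0.25). Gli2 was called higher there (0.29), but not without a variance trend (adjusted p = 0.0768) or without GFP+ replicate 1 (0.102), GFP+ replicate 2 (0.0654) or GFP- replicate 1 (0.132).

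The genes whose intensity ran most alike the members over the 12 arrays were ranked by Pearson correlation of log2(intensity + 16) over 9168 genes, a description over arrays that fall into 4 groups. For Zfp423 they were Mrgprf (r = 0.989), an orphan receptor, Adam23 (0.984), a membrane protein, Fap (0.983), a fibroblast protease, Errfi1 (0.981), an inhibitor of the EGF receptor, and Gstt2 (0.980), a glutathione transferase. Fap read 930.9 in GFP+ and 514.1 in GFP- inguinal cells, and 1574 in epididymal GFP+ and 319.0 in epididymal GFP- cells, which is the order of the groups seen for Zfp423. Most opposite were Mgll (-0.979), a lipase, Ptprz1 (-0.976), a phosphatase, and Arhgdib (-0.975).

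For Zfp521 the most alike were G0s2 (0.996), a lipase inhibitor, Plod1 (0.994) and P4ha2 (0.993), which hydroxylate collagen, Mmp11 (0.994), a metalloproteinase, and Gfpt2 (0.994), an enzyme of hexosamine synthesis. P4ha2 read 10775 in GFP+ and 10646 in GFP- inguinal cells, and 13449 in epididymal GFP+ and 2838 in epididymal GFP- cells. Vnn1 (-0.991), a pantetheinase, was most opposite, followed by Tacc2 (-0.988) and Plpp1 (-0.988). For Zfp467 likeness was weaker: Clec3b (0.947), a plasminogen-binding lectin, Pdgfra (0.931), the PDGF receptor of fibroblast progenitors, Arhgap18 (0.929), Atp9a (0.927) and Spry2 (0.925), with Gclm (-0.954) and Nqo1 (-0.947), genes of the oxidative stress response, and Klf4 (-0.945) most opposite. Clec3b read 42.3 in GFP+ and 5.58 in GFP- inguinal cells, and 72.8 in epididymal GFP+ and 117.7 in epididymal GFP- cells. Only the last of these means lies above the limit for weak detection. Its epididymal GFP difference was not called by limma (adjusted p = 0.12). Pdgfra read 6026 in GFP+ and 4627 in GFP- inguinal cells, and 6732 in epididymal GFP+ and 7382 in epididymal GFP- cells. Among themselves the members correlated at 0.800 for Zfp423 and Zfp521, -0.08 for Zfp423 and Zfp467, and -0.589 for Zfp521 and Zfp467.

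**Figure D5:**
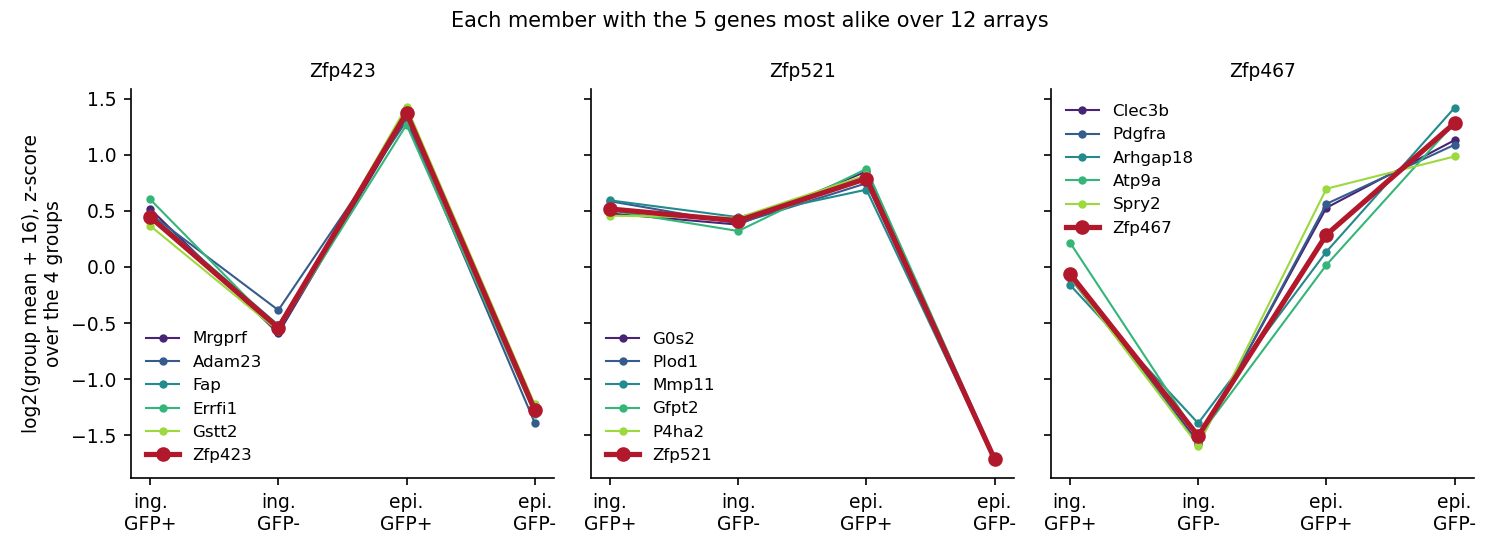
Group means of each member (red) and of the 5 genes most alike, on log2(mean intensity + 16) set to a z-score over the 4 groups. Lines only join the groups of 1 gene. Zfp423 peaks in epididymal GFP+ cells, Zfp521 drops in epididymal GFP- cells alone, and Zfp467 is lowest in inguinal GFP- and highest in epididymal GFP- cells.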

How the data were processed

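The authors deposited 1 linear intensity per probe set, per the labels from biotin-labelled cRNA on Affymetrix arrays. The signal algorithm and scaling the authors used are not given in the sources used here. The labels gave the 4 groups. The annotation named 1 gene for 20380 of 22626 probe sets (691 had several, 1555 none), updated through RefSeq identifiers. Values were transformed to log2(intensity + 16), and 5 contrasts were fitted over all probe sets and 12 arrays with limma 3.58.1 in R 4.3.3 (lmFit, eBayes with trend), with Benjamini-Hochberg adjustment at 0.05. The fit was tested on simulated data with planted changes. A gene outside the members stands by its brightest probe set. Genes in the lowest 30% of means (an intensity under 77.7) were called weakly detected and kept. The number of arrays limits the precision.

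Members and lists were chosen with earlier results of these data known. The naming rule took all member probe sets, the most alike genes (whose highest group mean was not weakly detected), up to 4 called genes per list and GFP contrast (otherwise up to 2 uncalled), and the 3 Zfp genes with the largest called change per direction. Id3, Smad4, Adipoq and named genes' values in comparisons outside the rule were added after they were seen. So were the promoter motifs, from RefSeq windows of GRCm38.p6 for Zfp423 and Zfp467. Zfp521 was not looked up there. The main fit did not pair samples by replicate number, and whether these numbers mark pairs is not known. Alternatives were the replicate block, quantile normalization, median centring, other pseudocounts, filters, variance models and probe set rules, and each array left out.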

Additional observations from a re-analysis of the deposited data

Results flagged for a closer look

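All 4 probe sets had a GFP contrast that differed between the depots in limma's interaction test. The difference, inguinal minus epididymal, was -1.56 for Zfp423 (adjusted p = 0.000164), -1.63 for Zfp521 (adjusted p = 1.27e-08), 1.03 for Zfp467 probe set 1449510_at (adjusted p = 0.00178) and 0.84 for Zfp467 probe set 1419564_at (adjusted p = 0.00977). Such a difference was called for 30.5% of all probe sets. All 3 arrays of epididymal GFP- cells, one of the groups that enter it, also carried the highest sums of mesothelial markers (37962 to 40054), and the part of these cells was not tested.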

How the results depend on the processing

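For Zfp423 all 5 contrasts kept direction and call in every alternative run, with a highest adjusted p of 0.0309 (between depots in GFP- cells, 1 array left out). For Zfp521 the same held in 4 contrasts, and between depots in GFP+ cells it was called with weak probe sets left out (-0.19, adjusted p = 0.0422). Leaving out 1 array gave values from -0.25 to -0.10, called in 2 of 12 such fits (adjusted p between 0.0256 and 0.296). For Zfp467 (1449510_at) the epididymal difference of -0.43 was not called with the replicate block (adjusted p = 0.0616) or without a variance trend (0.0594), and values ran from -0.54 to -0.30 with 1 array left out. Its inguinal difference ran from 0.51 to 0.73. The difference between its probe sets ran from 0.11 to 0.43. Whether the replicate numbers pair the samples is not known. Between groups, 2 of 18 same-number correlations exceeded 0.1, against 2 of 36 for other numbers. With 3 arrays per group these counts cannot decide it. The replicate block changed no other call of the members. Counts fell with fewer features tested: with each gene's brightest probe set or its probe sets averaged, 1556 and 1339 were called in the inguinal GFP contrast (2370 over all probe sets), 5187 and 4820 in the epididymal one (8618), 4313 and 3867 in their difference (6899), 6292 and 5794 between depots in GFP+ cells (10648), and 6656 and 6174 in GFP- cells (11248). With median centring 61.4% of the calls in the depot difference and 60.7% of those between depots in GFP+ cells were higher, against 46.9% and 47.5%. Of 54 results on named genes of the lists, 12 changed side under some alternative, and Zfp207 reversed with the mean of its probe sets (-0.20). Counts of Zfp genes called ranged from 2 to 7 higher and 1 to 7 lower in inguinal cells, and from 11 to 14 and 33 to 49 in epididymal cells. BMP and SMAD genes called lower ranged from 0 to 4 in inguinal cells. Of the 5 genes most alike, 4 stayed for Zfp423 with a pseudocount of 1 or 64, 5 for Zfp521, and 5 and 3 for Zfp467. These counts of lists and likeness were added after seeing the data. The alternatives for differences between probe sets were not run for Zfp423 and Zfp521, which have 1 each, and fitting only the groups compared is the same fit for the depot difference.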
